A study of Mus musculus with 36 samples.

Results

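The replication-dependent histone genes were examined through the CpG clusters that lie at them. These genes were the protein-coding genes of the GENCODE M21 annotation (GRCm38) whose names start with Hist1h, Hist2h, Hist3h or Hist4h, 67 in number. A CpG cluster is a run of listed cytosine positions at most 100 bp apart, and a cluster was a member if it overlapped a gene body or the 1000 bp on either side of it. Of 18009 clusters in the data, 15 were members, and they touched 19 of the 67 genes. A level is the smoothed share of methylated cytosines, in percent, and the level of a cluster is the mean over its positions with a value in all 36 samples. Such positions existed in 11 member clusters, and these were tested along with the other clusters that had them, 16734 in all.

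DNA methylation was measured by reduced representation bisulfite sequencing (RRBS), which reads DNA fragments cut by MspI at CCGG and so covers mainly CpG-rich sequence. The samples came from B3, a mouse pre-B cell line, in 2 series of 18. In the Ikaros series the cells carried a retroviral construct for HA-tagged wild-type Ikaros fused to the hormone-binding domain ERt2, with GFP behind an internal ribosomal entry site, so that 4-hydroxytamoxifen (4-OHT) brings the fusion protein into the nucleus, while the Control series carried the ERt2 vector without Ikaros. Each series had 3 replicates at 0, 2, 6, 12, 18 and 24 h, and the labels give 0.5 uM 4-OHT for every sample, the 0 h samples included, whereas the methods describe the 0 h cells as not induced. All samples derive from 1 line, so replicates are cultures or collections of that line and p-values measure the spread between them.

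Replication-dependent histone genes encode the core histones H2A, H2B, H3 and H4 and the linker histone H1 that package newly copied DNA. They lie in tight genomic groups, most have no introns, and their mRNAs end in a stem-loop instead of a poly(A) tail and accumulate in S phase. A few members are made mainly in the male germ line: Hist1h1t encodes a testis linker histone, and Hist1h2ba and Hist1h2aa encode the testis variants of H2B and H2A from a shared divergent promoter.

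The sequences of 5 clusters are given because the contrasts described here rest on them: the methylated testis-specific cluster, a partly methylated H2B cluster and its unmethylated near-copy, the H1 cluster with the largest difference between the series, and an unmethylated cluster upstream of the H4 gene Hist1h4a. Each is the plus strand of GRCm38, and capitals mark the CG dinucleotides with a listed position. Stretches longer than 300 bases are given by their first 300.
Hist1h2ba and Hist1h2aa, chr13:23933881-23934143: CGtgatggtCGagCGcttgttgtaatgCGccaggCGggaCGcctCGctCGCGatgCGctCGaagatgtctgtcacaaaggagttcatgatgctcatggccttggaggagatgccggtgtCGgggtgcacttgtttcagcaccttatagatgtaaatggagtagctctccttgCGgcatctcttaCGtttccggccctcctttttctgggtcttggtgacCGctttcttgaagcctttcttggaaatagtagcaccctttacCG
Hist3h2ba, chr11:58948955-58949254: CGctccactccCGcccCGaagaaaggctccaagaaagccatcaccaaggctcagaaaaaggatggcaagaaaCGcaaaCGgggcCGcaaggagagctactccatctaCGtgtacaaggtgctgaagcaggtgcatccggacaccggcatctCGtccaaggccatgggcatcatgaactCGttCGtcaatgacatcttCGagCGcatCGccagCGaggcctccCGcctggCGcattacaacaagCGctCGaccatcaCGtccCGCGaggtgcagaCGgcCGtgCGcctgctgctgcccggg
Hist3h2a upstream, chr11:58954130-58954262: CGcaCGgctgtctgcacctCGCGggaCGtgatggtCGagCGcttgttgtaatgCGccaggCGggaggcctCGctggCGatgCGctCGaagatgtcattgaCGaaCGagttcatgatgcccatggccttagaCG
Hist1h1a, chr13:23763809-23764094: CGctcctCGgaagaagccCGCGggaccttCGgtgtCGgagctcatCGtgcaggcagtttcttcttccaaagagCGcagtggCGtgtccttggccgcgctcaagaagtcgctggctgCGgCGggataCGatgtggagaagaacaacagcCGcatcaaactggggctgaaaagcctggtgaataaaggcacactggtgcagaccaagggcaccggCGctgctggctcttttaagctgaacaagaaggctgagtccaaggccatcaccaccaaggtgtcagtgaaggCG
Hist1h4a and Hist1h3a, chr13:23761273-23761572: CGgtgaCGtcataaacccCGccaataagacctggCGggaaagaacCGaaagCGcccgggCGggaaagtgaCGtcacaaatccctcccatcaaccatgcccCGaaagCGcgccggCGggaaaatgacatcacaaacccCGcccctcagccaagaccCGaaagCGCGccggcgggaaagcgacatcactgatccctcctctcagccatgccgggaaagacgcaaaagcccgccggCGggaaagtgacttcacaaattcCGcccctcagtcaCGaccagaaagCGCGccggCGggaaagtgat

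The annotated genes fall into 4 loci. HIST1 on chromosome 13 held 54 genes between 21715763 and 23934851, and 11 of them had a cluster. HIST2 on chromosome 3 held 10 genes, of which 5 had a cluster, and both HIST3 genes on chromosome 11 and the single HIST4 gene on chromosome 6 had one. By histone class, 5 of 6 H1 genes, 4 of 18 H2A genes, 4 of 18 H2B genes, 2 of 12 H3 genes and 4 of 13 H4 genes had a cluster. The share of histone genes with a cluster was 28.4%, against 56.5% (12394 of 21951) of all protein-coding genes by the same rule, whose gene bodies vary in length. Genes with and without a cluster had medians of 3.35 and 3.55 CG per 100 bp of gene and flank. The closest other histone gene was 89.7% identical over the aligned part for the median gene with a cluster and 97.8% identical for the median gene without one, and the part of sequence identity in the coverage was not tested. The 48 genes without a cluster, Hist1h1t among them, therefore have no values here.

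The member clusters held 538 listed positions, of which 429 lay in coding sequence, 31 in UTRs and 78 outside annotated exons. Of the clusters, 13 overlapped a histone gene body, and 13 lay within 200 bp of an annotated start. Their median density was 9.75 CG per 100 bp, against 9.43 over all clusters. The ratio of observed to expected CG was 1.01 at the median, against 0.85 over all clusters.

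Most somatic histone clusters were unmethylated. Of the 11 clusters with complete positions, 9 (81.8%) had a mean level under 10%, against 48.6% of all tested clusters and 58.4% of those within 1000 bp of a protein-coding start. A single cluster (9.09%) lay above 90% and 1 between. In 8 somatic clusters the mean over 36 samples ran from 0.11% to 0.97%, and the highest value in any single sample of these was 7.68%. The plot of levels by sample shows all 15 clusters.

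**Figure D1:**
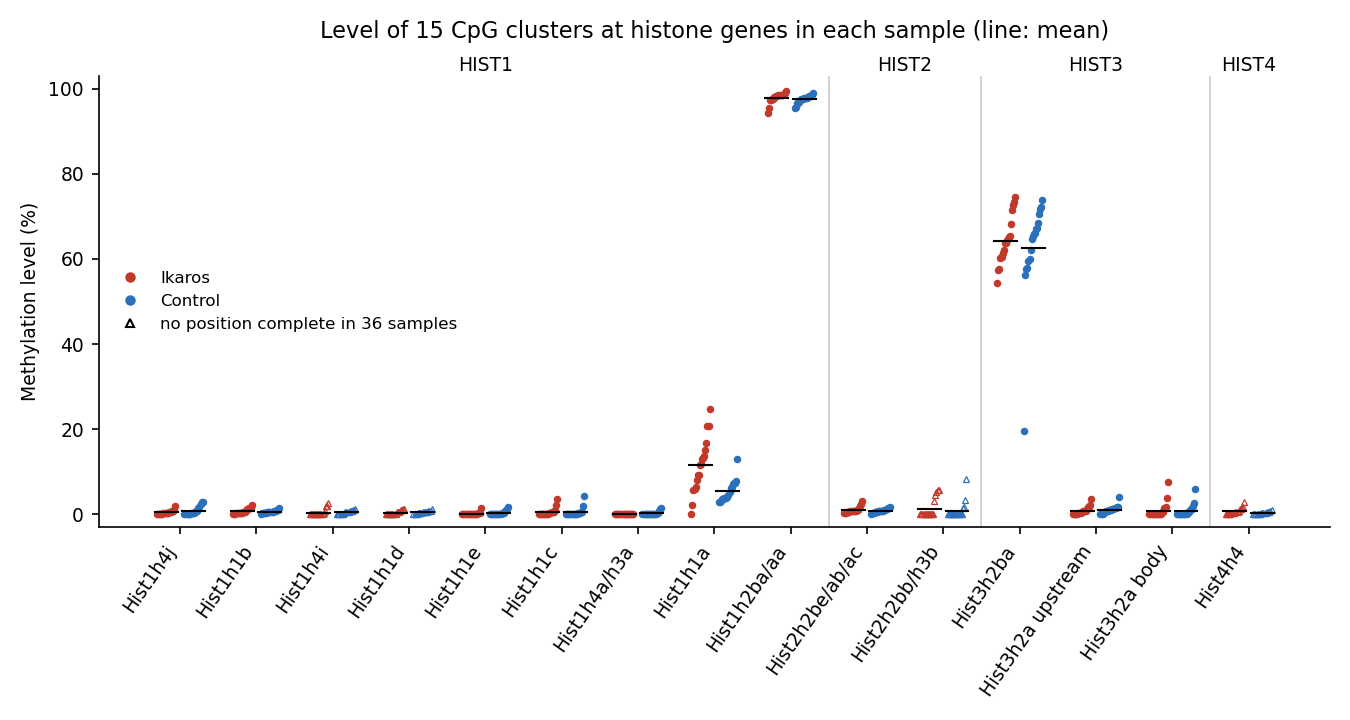
Methylation level (%) of the 15 member clusters, grouped by locus, with 1 point per sample, red for Ikaros and blue for Control, and black lines at the means. Triangles are clusters without a position complete in 36 samples, for which the mean over the values present is drawn. Hist1h2ba/aa lies above 94%, Hist3h2ba mostly between 54% and 75%, Hist1h1a below 25% and the rest near 0.

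The linker histone genes, whose products bind between nucleosomes, gave 5 HIST1 clusters. At Hist1h1b (chr13:21780072-21780623, 57 positions, the most of any H1 cluster), the level ran from 0 through a median of 0.53% to 2.08% in the Ikaros series and from 0.08% through 0.54% to 1.52% in the Control series. At Hist1h1e it ran from 0 through 0 to 1.51% in Ikaros and from 0 through 0.16% to 1.69% in Control. Both clusters had overlapping series, with all samples near the floor. At Hist1h1c the highest samples were 3.55% in Ikaros and 4.28% in Control, above medians of 0.10% and 0.05%. The cluster at Hist1h1d, in its coding sequence, had no complete position, because Control 0 h replicate 1 had no value there. Its mean over the values present was 0.39% ± 0.50 (SD, n = 18) in Ikaros and 0.48% ± 0.35 (SD, n = 17) in Control. That 126 bp sequence is 100% identical to a stretch of Hist1h1c and 99.2% identical to one of Hist1h1e, so levels at these 3 genes are uncertain where reads could be placed at more than 1.

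The clusters at H4 genes were also near 0. H4 pairs with H3 in the histone tetramer, and no member cluster lay inside an H3 gene. At Hist1h4j, Ikaros samples ran from 0 through a median of 0.35% to 1.89% and Control samples from 0 through 0.38% to 2.95%. The cluster between Hist1h4a and Hist1h3a, both on the minus strand, lies outside exons, 43 bp upstream of the Hist1h4a start and past the 3' end of Hist1h3a, and had 39 positions but only 6 complete ones. All 18 Ikaros samples were at 0, as were 14 of 18 Control samples, the highest of which reached 1.57%. The Hist1h4i cluster, again without a value in Control 0 h replicate 1, averaged 0.42% ± 0.83 (SD, n = 18) in Ikaros and 0.49% ± 0.43 (SD, n = 17) in Control. Hist4h4, the single gene of HIST4 (chr6:136804044-136804270, 42 positions), averaged 0.71% ± 0.75 (SD, n = 18) and 0.27% ± 0.29 (SD, n = 17), with no value in Control 18 h replicate 3. The Hist1h4j and Hist1h4i clusters are 96.7% and 95.8% identical to sequence at Hist1h4k and Hist1h4n.

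HIST2 gave 2 clusters. The one in the coding sequence of Hist2h2be, an H2B gene, also lay within 1000 bp of Hist2h2ab and Hist2h2ac, H2A genes. Its level ran from 0.30% through 0.76% to 3.12% in Ikaros and from 0 through 0.83% to 1.67% in Control, so the series overlapped. The cluster at Hist2h2bb and Hist2h3b had no complete position and was at 0 in 13 of 18 Ikaros and 14 of 18 Control samples, with a highest value of 8.41%. The mean over the 7 tested HIST1 clusters was 14.5 points above the HIST2 cluster (SD 1.03 over 36 samples, higher in 36 of 36). Without the testis-specific cluster, a choice made after seeing the data, the difference was 0.83 points (SD 1.15, higher in 28 of 36), so the first value rests on that cluster. Without Hist1h1a as well, chosen in the same way, the 5 other HIST1 clusters averaged 0.42% against 0.93% at the HIST2 cluster, and the difference turned to -0.51 points (SD 0.69, higher in 9 of 36).

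The testis-specific cluster was methylated in every sample. It lies in the coding sequence of Hist1h2ba, 13 bp inside its start, and within 1000 bp of Hist1h2aa, and all 32 of its positions were complete. The level ran from 94.3% through a median of 98.3% to 99.3% in Ikaros and from 95.3% through 97.8% to 98.8% in Control. The lowest sample, Ikaros 24 h replicate 1, stood above every sample of every somatic histone cluster. The testis-specific cluster had a mean of 97.7% ± 1.10 (SD, n = 36) and the 10 somatic clusters 7.68% ± 1.21, a difference within samples of 90.001 points (SD 1.57, range 85.0 to 92.8). Against the median somatic cluster the difference was 97.1 points (SD 1.20), and it was positive in 36 of 36 samples. The testis side is 1 cluster, so this difference is a description without a test. The cluster had no copy in the genome at 90% identity or more over at least 50% of its length, its closest being 89.2% identical at Hist1h2bq, Hist1h2br and Hist1h2bk.

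**Figure D2:**
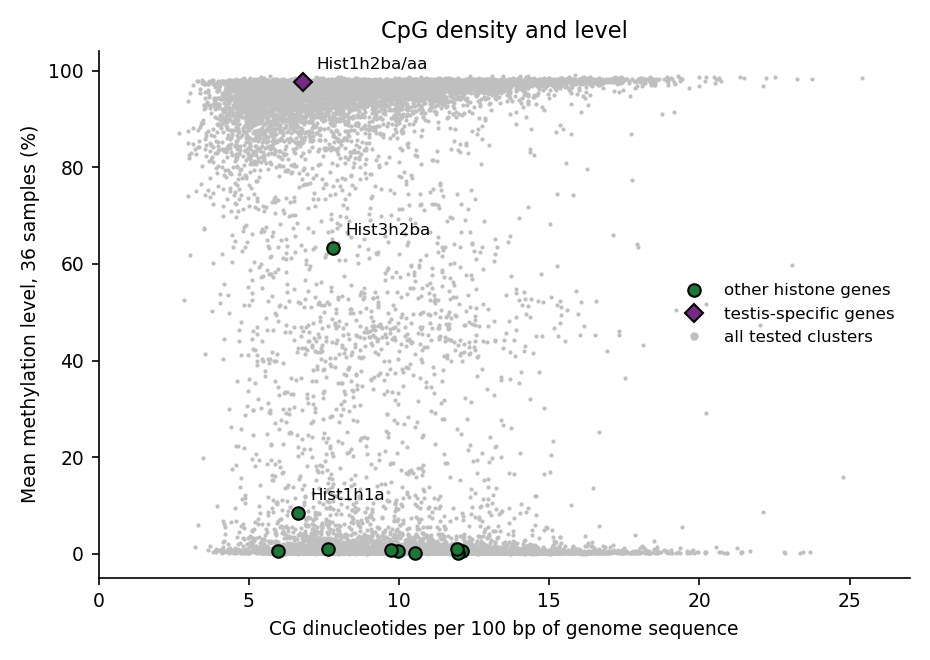
Mean level over 36 samples (%) against CG dinucleotides per 100 bp of genome sequence, with grey points for all 16734 tested clusters, circles for 10 somatic histone clusters and a diamond for the testis-specific one. At 6.82 CG per 100 bp the testis-specific cluster lies at 97.7%, while Hist1h1b at 5.97 and Hist1h1a at 6.62 lie at 0.65% and 8.49%.

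The testis-specific cluster was among the less dense ones, at 6.82 CG per 100 bp, and 19.8% of all clusters had fewer. Of the members with low levels, Hist1h1b had 5.97 and Hist1h1a 6.62 CG per 100 bp.

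Hist3h2ba, an H2B gene of HIST3, was partly methylated. The level ran from 54.2% through a median of 63.7% to 74.4% in Ikaros and from 19.6% through 65.6% to 73.8% in Control. The series overlapped, and 1 library, Control 0 h replicate 1, stood far below the other 35, whose lowest was 54.2%. That library also had no value at 11.6% of all listed positions, the largest share of any sample. With it the Control mean was 62.6% ± 11.9 (SD, n = 18), and without it 65.1% ± 5.43 (SD, n = 17). The Ikaros mean was 64.2% ± 5.82 (SD, n = 18). For comparison, the median SD over the 477 tested clusters with mean levels of 50 to 80% was 6.96 points.

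Within the Hist3h2ba cluster the level dipped. The 34 positions from 58949106 to 58949238 had a mean of 58.0% ± 9.13 (SD, n = 36). The 7 complete positions before them were at 89.7% ± 11.9 (SD, n = 36). After them the level was 61.8% at 58949273 and 63.1% at 58949279, close to that of the stretch, and it ran from 93.1% to 95.4% at the last 5 positions, which had a value in 32 samples. The 7 positions before the stretch exceeded it by 31.7 points (SD 7.47, higher in 36 of 36 samples). The smallest difference, 1.61 points, was in Control 0 h replicate 1, and without that library the difference was 32.5 points (SD 5.49, range 21.9 to 45.9).

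The same stretch has a near-copy on the same chromosome. The Hist3h2ba cluster is 96.3% identical over 406 bp to sequence at Hist3h2bb-ps, a pseudogene. The stretch of 34 positions corresponds to a cluster there, whose ends set its bounds, upstream of Hist3h2a, at 98.5% identity over 134 bp (2 mismatches), and the outer parts have 13 mismatches in 272 aligned bases. The pseudogene cluster ran from 0 through a median of 0.60% to 3.72% in Ikaros and from 0 through 1.00% to 4.03% in Control, so it was unmethylated where its near-copy was at 58.0%. The part of this sequence identity in either level was not tested.

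**Figure D3:**
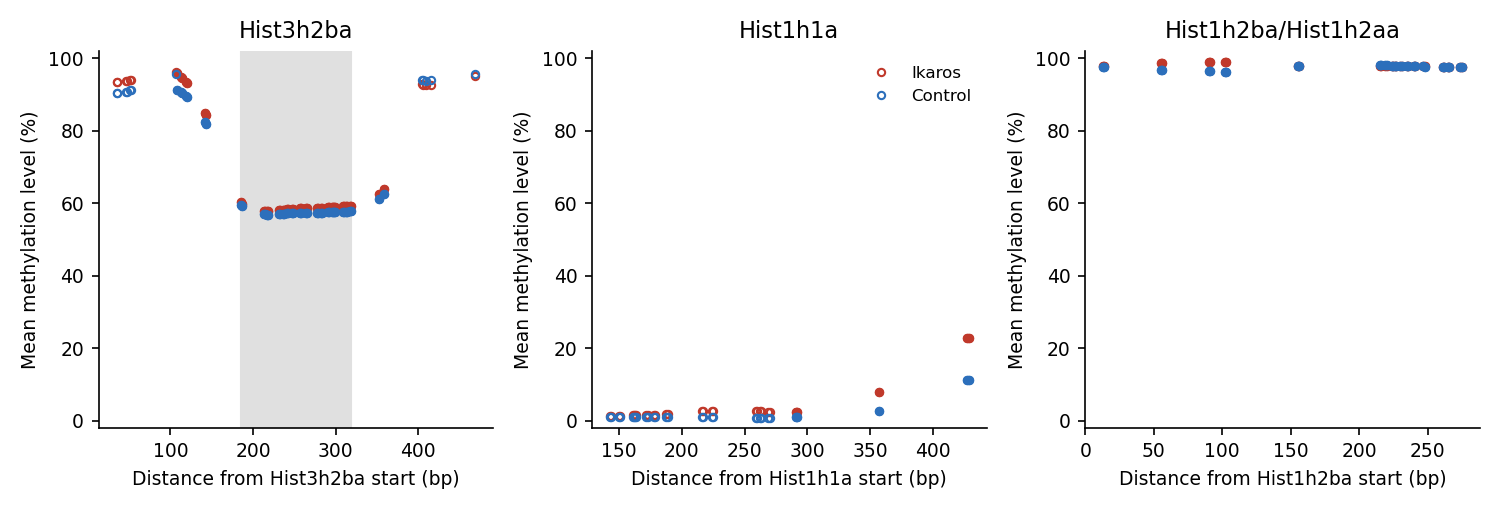
Mean level (%) of each listed position against the distance from the gene's start (bp) for Hist3h2ba, Hist1h1a and Hist1h2ba, red for Ikaros and blue for Control. Filled points are complete in 36 samples, and grey marks the 134 bp of Hist3h2ba that are 98.5% identical to the pseudogene cluster. The dip in Hist3h2ba, the rise at the 3' end of the Hist1h1a cluster and the flat Hist1h2ba profile can be read from it.

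Hist3h2a, the H2A gene beside it, was unmethylated in its coding sequence (chr11:58954825-58955100). Complete positions ran from 0 through 0 to 7.68% in Ikaros and from 0 through 0 to 5.93% in Control. Taking every value present, Ikaros 24 h replicate 2 reached 33.0% and Control 12 h replicate 2 reached 25.6%, and 19 of the 36 samples were at 0. Ikaros 24 h replicate 2 was also the sample with the largest share of positions at exactly 0 or 1, 59.1%.

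Hist1h1a, a somatic H1 gene, was the member with the largest difference between the series. Its 5 complete positions had levels from 0 through a median of 11.7% to 24.8% in Ikaros and from 2.81% through 4.41% to 12.98% in Control. The series overlapped, with means of 11.6% ± 6.54 (SD, n = 18) in Ikaros and 5.39% ± 2.52 (SD, n = 18) in Control. These values rest on 5 of the 29 positions. Over all values present the means were 4.46% ± 4.57 and 2.03% ± 1.23, a difference of 2.43 points (limma, adjusted p = 0.19). These means mix unlike sets of positions. Ikaros 24 h replicate 2, Control 0 h replicate 3 and Control 2 h replicate 3 had values at the complete positions only. The first of them was at 20.7%, where the next highest Ikaros sample was at 6.57%. The higher levels lay at the 3' end of the cluster. The last 2 positions, both strands of 1 CG at 23764093 and 23764094, were at 22.7% ± 12.96 in Ikaros and 11.2% ± 6.12 in Control, and the 24 positions with incomplete values were at 1.94% ± 1.86 and 0.97% ± 0.86 in the 33 samples with a value there.

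By time point, Ikaros replicates of Hist1h1a were 16.7, 9.29 and 11.8% at 0 h against 7.19, 3.92 and 4.63% in Control. At 2 h they were 20.7, 11.6 and 9.16% against 4.19, 2.81 and 3.72%, and at 24 h 13.2, 20.7 and 13.7% against 7.89, 6.08 and 7.32%. At these 3 times all 3 Ikaros samples were above all 3 Control samples, which was also so at 5%, 7.1% and 9.71% of all tested clusters at 0, 2 and 24 h. At 6, 12 and 18 h the groups overlapped, Ikaros running from 0 to 24.8% and Control from 2.93% to 12.98%, where 6.84%, 7.53% and 9.41% of all tested clusters had all 3 Ikaros samples above all 3 Control samples. At 0 h the difference was 7.37 points. Over all times it was 5.80, 6.84 and 5.92 points within replicate numbers 1, 2 and 3, which mark batches.

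**Figure D4:**
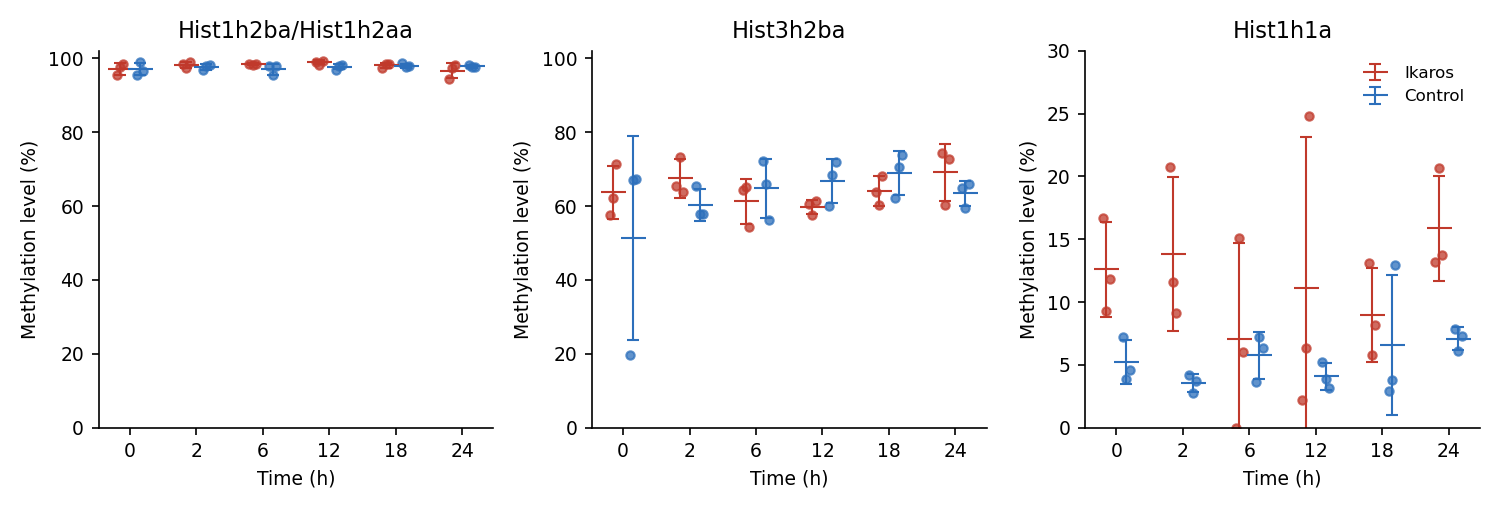
Level (%) at each time point (h) for Hist1h2ba/Hist1h2aa, Hist3h2ba and Hist1h1a, with points for samples, bars for the mean and error bars for the SD of 3 replicates, red for Ikaros and blue for Control. The axis of Hist1h1a ends at 30%. Control 0 h replicate 1 at 19.6% sets the wide error bar of Hist3h2ba.

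The difference between the series was tested with limma on M-values (log2 of methylated to unmethylated share), with time as a factor and Benjamini-Hochberg adjustment over all 16734 clusters. None of the 11 member clusters was called at an adjusted p under 0.05, where 4.84% of all clusters (810) were called. At an unadjusted p under 0.05 there were 2484 clusters, 1 of them a member. In limma Hist1h1a had an M-value difference of 0.86 (SE 0.28), with an adjusted p of 0.074, the smallest of the members. It was called with levels in place of M-values (6.19 points, adjusted p = 0.019) and without replicate 1 (adjusted p = 0.037), and not with each sample's percentage of empty positions and percentage of values equal to 0 or 1 as covariates (M-value difference 0.62, adjusted p = 0.62). The share of positions at exactly 0 or 1 had a median of 34.2% in Ikaros and 26.7% in Control libraries. Leaving out Ikaros 6 h replicate 1, the sample at 0, gave an adjusted p of 0.0096, and leaving out Ikaros 12 h replicate 1, at 2.19%, gave 0.027. Of the 36 fits that left out a single library, only these 2 called Hist1h1a, and limma's adjusted p reached 0.12. The 4.84% refers to the main fit, and the shares of all clusters called in the alternatives are not given here.

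The next smallest p-values of this test were at Hist1h4j, with a level difference of -0.38 points (limma, adjusted p = 0.40), and at Hist1h4a and Hist1h3a, at -0.22 points (adjusted p = 0.47). The testis-specific cluster differed by 0.39 points (adjusted p = 0.55) and Hist3h2ba by 1.64 points (adjusted p = 0.85), or by -0.88 points without Control 0 h replicate 1. The median absolute difference was 0.22 points over the members and 0.25 points over all tested clusters. Of the members, 7 were higher in Ikaros and 4 lower, and of all tested clusters 9256 were higher and 7477 lower. M-values use levels limited to between 0.01 and 0.99, so differences between position levels that are both under 1% do not enter these tests.

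No member cluster was called for a change over time. In the Ikaros series limma's F test called 0% of all clusters (873 had an unadjusted p under 0.05). The smallest member p in that limma test was 0.21, at the testis-specific cluster. In the Control series 0.012% of clusters (2) were called and 808 fell under 0.05 before adjustment. The smallest member p there was 0.044 at Hist1h1c (adjusted p = 0.99), where the 6 h samples were 2.04, 4.28 and 0.02% and the highest of the other Control samples 0.56%. The 6 h group overlapped the others through replicate 3. The limma test of a different course over time called 0% of clusters, and 857 fell under 0.05 before adjustment. Its smallest member p was 0.075, again at Hist1h1c.

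Between 0 and 24 h the 3 replicates at each time did not overlap at 1 of the 11 tested member clusters in Control and at 0 in Ikaros, where 11.2% and 9.73% of all tested clusters did not overlap. The cluster was Hist1h4j, at 0, 0 and 0.32% at 0 h and 0.74, 0.42 and 0.69% at 24 h. The members' share was therefore near or below that of all clusters.

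Other clusters inside the HIST1 span were mixed. Of these 12, 6 were under 10% and 5 above 90%. Most of them lay in 1 long stretch without any of the histone genes examined, from the end of Hist1h2bj at 22043676 to the start of Hist1h4h at 23531050. The cluster at Pom121l2 was at 96.5% and the one at Abt1 at 1.30%, and Prss16 had 1 cluster at 0.45% and 1 at 77.0%. The next cluster beyond the testis-specific genes, 344586 bp past the window of the locus at Carmil1, was at 30.7%. Next to HIST4, the cluster at H2afj, a variant H2A gene, was at 0.09%, and at 0.10% over its complete positions. The levels of neighbouring clusters given here were therefore not limited to complete positions.

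Clusters at replacement and variant histone genes were near 0 or above 90%. All 11 replacement and variant histone genes of the list had a tested cluster within 1000 bp of a start, 16 in all, of which 10 were under 10% and 6 above 90%. H3f3a and H3f3b, which encode the replacement histone H3.3, and H2afz, which encodes H2A.Z, had mean levels from 0.23% to 0.34%. The high ones belonged to H2afy2 (a macroH2A), H1f0 and H1fx (linker histones). Of the 16, 1 was called between the series, at H2afy2, with 98.6% ± 1.18 (SD, n = 18) in Ikaros and 97.2% ± 1.56 in Control (limma, adjusted p = 0.036), where 4.84% of all clusters were called. The other H2afy2 cluster had 96.9% ± 2.68 in Ikaros and 97.4% ± 1.24 in Control (limma, adjusted p = 0.98). None of the 16 was called in the other 3 tests. Genes for histone mRNA synthesis and processing had 13 clusters at 12 of 14 genes, and all 13 were under 10%. Slbp, the stem-loop binding protein, was at 0.14% and Npat, a coactivator of histone transcription, at 0.23%, and none of the 13 was called. The 3 germ-line linker genes of the list (H1fnt, H1foo and Hils1) had no tested cluster.

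Methylation at cell type genes was measured at few starts. Of 10 B-lineage markers 4 had a tested cluster, and Pax5, Ebf1 and Vpreb1 were at 0.98%, 0.20% and 0.34%. The 3 clusters at Ikzf1 were at 97.8% to 98.2%. Of 12 markers of other blood lineages 3 had one, at Lck (79.6%), Epor (94.0%) and Klf1 (1.47%). None of these 9 clusters was called in any test.

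Promoter sequence was available from RefSeq (GRCm38) for 62 of the 67 genes, as 63 windows of 300 bp, 250 before and 50 after the start. On either strand CCAAT was found in 85.7% of them against 37.4% of all promoters, and TATAAA in 55.6% against 13.6%. CCAAT was in all H1, H2A, H2B and H3 windows but in 3 of 12 H4 windows. The octamer ATTTGCAT was found in 22.2% against 1.74%, in 7 of 17 H2B and 7 of 18 H2A windows and in none of the H1, H3 and H4 windows. Among the testis-specific genes all 3 held CCAAT, and Hist1h2ba and Hist1h2aa both held TATAAA and the octamer, in overlapping windows. CCGG, the MspI site, was found in 64.7% of windows of genes with a cluster and 23.9% of those without. Over the gene and its 1000 bp flanks the median number of CCGG was 9 and 8. The Hist1h2ba window held 2 listed positions and that of Hist1h2aa none, so the measured level is that of the coding sequence and not of the shared promoter.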

How the data were processed

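RRBS was analysed in 36 samples of B3 cells. The authors trimmed the reads, mapped them with Bismark 0.10.1 (version per the labels) to GRCm38/mm10, and smoothed levels within CpG clusters with BiSeq. The deposited levels are fractions from 0 to 1. A second deposited table gives log2 M-values, whose levels were limited to between 0.01 and 0.99. Neither table holds coverage, so depth is unknown and no counting interval is given. Levels are given in percent.

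Clusters were tested with limma 3.58.1 in R 4.3.3 (lmFit, eBayes) at an adjusted p of 0.05. The fit of the series difference was also run on simulated data. The simulated M-values had no limits, so that run cannot show how the fit performs for clusters near 0. Sequence was read with pysam 0.24.0, and copies were searched with blastn 2.17.0 (e-value 1e-05), from GRCm38. Pairing comes from the labels, where replicate numbers mark shared batches (replicate 2 is batch 2 at 0 h and batch 3 later). The methods state that the 0 h cells were obtained separately, so comparisons of later times with 0 h also compare separate collections. Deviations from condition means of same-numbered samples correlated at 0.0016 on average (198 pairs). Named clusters were those with the smallest p-values per test, those of testis-specific genes, those of HIST2 to HIST4, those at 10% or more and the longest per class. Members and lists were chosen with earlier results of these data known.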

Additional observations from a re-analysis of the deposited data

How the results depend on the processing

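The count of called member clusters was 0 in the tests of time and course under every alternative run. In the test between the series it was 1, at Hist1h1a, on levels, without replicate 1, without Ikaros 6 h replicate 1 and without Ikaros 12 h replicate 1, and leave-one-out counts ran from 0 to 1. The shares of all clusters called in these alternatives are not given here, so a general rise in calls cannot be told from a gain at Hist1h1a. With the replicate block (pairing by number) the counts were 0 in all 4 tests, and limma's adjusted p of Hist1h1a was 0.084 against 0.074 without it. No call of a member changed under the block. Over all alternatives the adjusted p of Hist1h1a ran from 0.0096 to 0.62.

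HIST1 minus HIST2 was 10.6 points over all values present, which also brings in the untested members (9 HIST1 and 2 HIST2 clusters), and 13.8 points over all values present in the tested clusters alone. It was 22.0 points as a mean over genes, 0.83 points without the testis-specific cluster and -0.51 points without that cluster and Hist1h1a. The testis-specific minus somatic difference was 96.2 points without Hist3h2ba. The value of 13.8 and those that leave out named clusters were chosen after seeing the data. Without replicates in turn the first difference ran from 14.4 to 14.6 points.

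Signs of uncalled series differences (M-value) turned in 29 of 506 alternatives, at 6 clusters, none of them called. With each sample's percentage of empty positions and of values equal to 0 or 1 as covariates they were 0.037 at Hist1h1e, -0.26 at Hist1h1c, -0.040 at Hist3h2ba and -0.014 at the Hist3h2a body, and from 2 to 24 h -0.020 at Hist3h2ba. Leave-one-out values ran from -0.050 to 0.19 at Hist1h1b, from -0.10 to 0.12 at Hist1h1c, from -0.069 to 0.25 at Hist3h2ba, from -0.17 to 0.071 upstream of Hist3h2a and from -0.17 to 0.13 in its body. The cause was not tested. Depth is unknown, so differences among levels near 0 cannot be judged against counting error.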
